A study of Mus musculus with 12 samples.

Results

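The comparison set the transcriptome of oocytes from mice whose Dpagt1 was deleted in the oocyte against that of oocytes from mice whose Dpagt1 was deleted in granulosa cells, the somatic cells around the oocyte. The oocyte knockout (GcKO) combined the floxed Dpagt1 allele with a Gdf9-Cre transgene, and the granulosa-cell knockout (AmcKO) combined the same floxed allele with Cre placed in the Amhr2 gene. Both groups were therefore homozygous for the floxed allele and carried a Cre, and what differed by design was the cell type in which Cre acted. All mice were on a C57BL/6J background and were 3 weeks old. Fully grown oocytes at the germinal vesicle stage, arrested in meiotic prophase, were collected 46 h after priming with gonadotropin, and each library was made from 20 of them. There were 3 libraries of each genotype, numbered 1 to 3 for GcKO and 4 to 6 for AmcKO. The other 6 of the 12 libraries in the series came from oocytes carrying a missense Dpagt1 allele (MUT, 3 libraries) and from wild-type oocytes (WT, 3 libraries), and they served as a reference for levels. A gene was kept when it reached 1 FPKM (fragments per kilobase of transcript, scaled to the mapped fragments of the library) in at least 1 of the 6 knockout libraries, which 10343 of 24255 listed genes did. Nothing in the labels says whether the libraries of a group came from separate mice, so p-values measure only the spread between libraries. For single genes this spread was pooled over all 12 libraries, MUT and WT included.

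DPAGT1 is the enzyme of the endoplasmic reticulum (ER) that starts the dolichol-linked glycan, the lipid-carried precursor that oligosaccharyltransferase moves onto asparagine residues of new proteins. Glucosidases and mannosidases then trim the glycan, and the lectins calnexin and calreticulin hold glycoproteins in the ER until they have folded. In oocytes the best-known N-glycoproteins are those of the zona pellucida, the coat through which the oocyte stays in contact with its granulosa cells. Gdf9-Cre acts in oocytes from the primordial follicle on, whereas Amhr2-Cre acts in granulosa cells, so an AmcKO oocyte by design keeps its own Dpagt1 and grows among somatic cells that lack it.

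The libraries of the groups differed in makeup before any single gene was considered. The FPKM sum over all genes was 482314, 612604 and 684212 in GcKO and 967002, 1107920 and 883256 in AmcKO, and the groups did not overlap (exact two-sided permutation test, p = 0.1, the smallest that 3 against 3 allows). The 100 most abundant genes held between 45.9% and 50.4% of that sum in GcKO and between 56.7% and 59.2% in AmcKO. Genes above 0 numbered 10733 to 11608 in GcKO and 10399 to 10921 in AmcKO, which overlapped (exact two-sided permutation test, p = 0.2). Rn45s, the precursor of ribosomal RNA and named after its values were seen, stood at 1169, 1441 and 1311 FPKM in the GcKO libraries and 777, 629.8 and 628 FPKM in the AmcKO libraries. The part of these differences in the results was not tested. With a fixed number of oocytes in each library and relative values, less mRNA per oocyte and a change in a few abundant transcripts cannot be told apart. All 16 oocyte markers were above 0 in every library. Of 30 granulosa and cumulus cell markers, 13 were at 0 in all 6 libraries, among them Amh, Foxl2 and Lhcgr. The other 17 were above 0 in at least 1 of the 6, and 9 reached 1 FPKM, so a somatic signal cannot be taken as absent. Oocytes also express at least Bmpr1b of these markers, and the source of the values was not tested. The summed level of the list was 142 to 177 FPKM in GcKO and 142 to 166 FPKM in AmcKO. Of 20 theca, stroma and blood cell markers, 13 were at 0 in all 6, and the sum was between 2.99 and 9.66 FPKM over the 6 libraries.

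The targeted gene gave no check on the genotypes. Dpagt1 (chromosome 9, 44326019 to 44333900, plus strand of GRCm38) was listed at 0, 0.366 and 0 FPKM in the GcKO libraries and 0, 0 and 0 FPKM in the AmcKO libraries, below the minimum for testing, and at 0.878, 0.408 and 0.985 FPKM in MUT and 0, 0 and 0 FPKM in WT. A gene near 0 in wild-type oocytes cannot show a deletion in these data. Amhr2, which carries the knock-in Cre, was listed at 0 in all 12 libraries. Gdf9, an oocyte growth factor whose promoter drives the other Cre, stood at 1652, 2795 and 2502 FPKM in the GcKO libraries and 2487, 2121 and 3113 FPKM in the AmcKO libraries. The Gdf9 groups overlapped, and the difference did not pass the test (-0.17 ± 0.24 (SE), adjusted p = 0.73).

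Of the 10343 genes, 646 differed between GcKO and AmcKO oocytes, or 6.25% (limma with a variance trend on log2(FPKM + 1), Benjamini-Hochberg adjusted p under 0.05). Lower levels in GcKO made up 554 of these, 5.36% of the genes tested, and higher levels made up 92, or 0.889%. More than 2-fold apart were 224 of the former and 47 of the latter. The 3 GcKO values lay wholly outside the range of the 3 AmcKO values for 551 of the 554 lower and all 92 higher genes, against 25.1% of all genes tested. The median over all genes was 0.058 on the log2 scale. Of 10343 genes, 2163 had an unadjusted p under 0.05. The number of calls rested on the spread borrowed from MUT and WT, since the 6 libraries alone gave 115 calls, 109 of them among the 646, and without AmcKO replicate 4 or AmcKO replicate 5 the counts were 275 and 297. Without GcKO replicate 1 or GcKO replicate 2 they were 321 and 367. Most of the 646 calls were not made by the 6 libraries alone. Of genes given below, Dppa3, Pttg1, Esco2, Npm2 and Zp3 had adjusted p of 0.058 to 0.16 in that 6-library limma fit.

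The lower transcripts were the abundant ones. Among 5552 genes with a mean under 5 FPKM over the 6 libraries, 0.216% were called lower and 0.54% higher in GcKO. Between 50 and 500 FPKM, 25.4% of 1065 genes were called lower, and at 500 FPKM or more, 61.1% of 265 genes were. The median log2 difference went from 0.18 in the lowest class to -0.74 in the highest. The class medians depended on the scale. With every library brought to the same FPKM sum they went from 0.60 in the lowest class to 0.0038 in the highest. Relative to all genes these were -0.0012 and -0.59, so the slope remained. After quantile normalization the median in the highest class was -0.0094, against 0.042 in the lowest. That step gives every library the same distribution of values, so it removes most of such a slope by construction and cannot test it. The calls after quantile normalization were 172 lower and 108 higher. With equal sums they were 132 lower and 2602 higher, around an all-gene median of 0.60. Calls in the same direction on all 3 scales numbered 135, of which 88 were lower and 47 higher in GcKO. Equal sums moved the all-gene median up by 0.54, so that scale was an easier bar for rises than for falls. A rise kept on all 3 scales, here and below, is therefore not as strict a result as a fall.

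**Figure D1:**
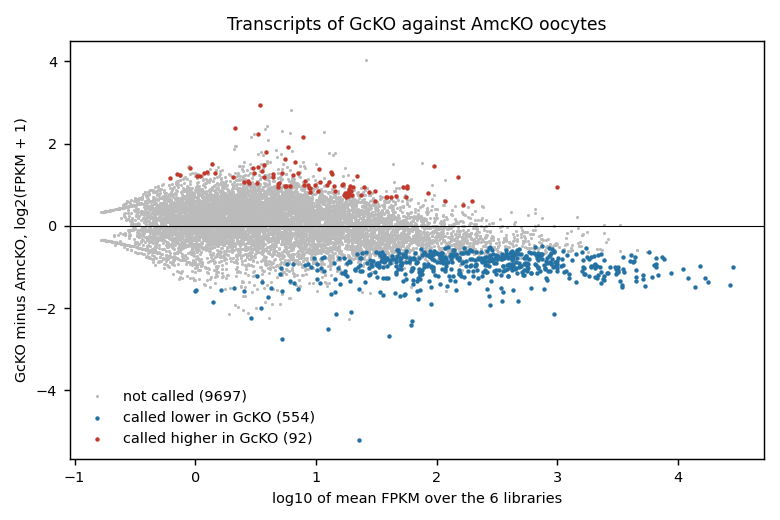
Difference between GcKO and AmcKO oocytes for each of the 10343 genes (vertical axis, log2(FPKM + 1) units, values below 0 lower in GcKO) against the log10 of the mean FPKM over the 6 libraries. Blue points are the 554 genes called lower in GcKO and red points the 92 called higher, and the blue points gather among the abundant transcripts on the right.

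The first list holds the genes that assemble the glycan precursor. For dolichol-linked oligosaccharide synthesis, 2 of 26 tested members were lower in GcKO, or 7.69% against 5.36% of all genes, none was higher, and the median was -0.017. The lower ones were Gnpnat1, which makes a precursor of UDP-GlcNAc (-0.72 ± 0.20 (SE), adjusted p = 0.0442), and Dpm2, a subunit of dolichol-phosphate-mannose synthase (-0.69 ± 0.18 (SE), adjusted p = 0.0348). Neither call was kept after quantile normalization or same-sum scaling. Alg13, which forms the second transferase of the pathway, differed by -0.24 ± 0.16 (SE), adjusted p = 0.453, and Alg11, a mannosyltransferase, by -0.71 ± 0.28 (SE), adjusted p = 0.159, neither passing the test. Among 12 subunits and partners of oligosaccharyltransferase, Dad1 was called lower (-0.94 ± 0.19 (SE), adjusted p = 0.0112) on the deposited scale only, while the small subunits Ost4 (-0.26 ± 0.23 (SE), adjusted p = 0.565) and Ostc (-0.29 ± 0.22 (SE), adjusted p = 0.482) did not pass. Pigyl, of the GPI anchor pathway, was the single call among 17 tested genes of that list (-0.72 ± 0.15 (SE), adjusted p = 0.0123), on the deposited scale only.

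Calnexin was the exception among the genes that read the glycan. Canx, the membrane-bound lectin chaperone of the ER, stood at 95.6, 117 and 136 FPKM in the GcKO libraries and 468, 450.1 and 402 FPKM in the AmcKO libraries, and the groups were far apart. Its log2 difference was -1.92 ± 0.16 (SE), adjusted p = 4.82e-05. The level in GcKO was near that in MUT, at 158, 141 and 129 FPKM in MUT and 400.4, 382 and 338 FPKM in WT. The difference was -1.48 after quantile normalization and -1.18 with equal sums, and the call was kept in all 15 alternative fits. Calr, the soluble partner of calnexin, added after the values were seen, was at 45.1, 41.9 and 46.5 FPKM in the GcKO libraries and 45.3, 36.1 and 35.3 FPKM in the AmcKO libraries and did not pass the test (0.20 ± 0.19 (SE), adjusted p = 0.588). None of the other 17 tested members of the list for glycan trimming and quality control was called, and the median of the list was 0.35.

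The Canx gene lies on the minus strand of chromosome 11, from 50293961 to 50325673. Its promoter is shown because it holds an exact match to the ER stress response element, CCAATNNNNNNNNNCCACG, the motif through which ATF6 and XBP1 act on ER chaperone genes. The 250 bases before the start given by RefSeq (GRCm38.p6) run over chr11:50325674-50325923 on the minus strand, with the match in capitals.

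Canx promoter: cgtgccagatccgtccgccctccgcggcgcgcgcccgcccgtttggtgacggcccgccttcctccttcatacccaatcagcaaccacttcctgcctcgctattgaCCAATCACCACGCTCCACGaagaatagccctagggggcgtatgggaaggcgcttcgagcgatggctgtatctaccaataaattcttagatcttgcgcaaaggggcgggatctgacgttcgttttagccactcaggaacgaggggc

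The match began 145 bases before the start. Both strands were searched, and a match stood in 0.118% of 27025 promoters of the same length and in the promoter of Hspa5, which encodes the ER chaperone BiP. The presence of these letters is a description of the sequence and shows nothing of the use of the site in oocytes. Hspa5 itself was at 41.2, 36.8 and 38.3 FPKM in the GcKO libraries and 38.3, 39.5 and 34.5 FPKM in the AmcKO libraries, the groups overlapped, and the difference was 0.05 ± 0.19 (SE), adjusted p = 0.911. In the list for ER chaperones and the unfolded protein response, 2 of 21 tested members were lower in GcKO, or 9.52% against 5.36% of all genes. They were Selk (-0.69 ± 0.18 (SE), adjusted p = 0.0355) and Manf (-0.63 ± 0.14 (SE), adjusted p = 0.0185), and both calls were lost after quantile normalization and with equal sums. None of 25 tested targets of ATF4, the transcription factor of the amino acid and ER stress response, was called. Their median was 0.51, against 0.058 over all genes, at a median level of 3.74 FPKM. Of all genes under 5 FPKM only 0.216% were called lower and 0.54% higher, so the absence of calls says little about these targets. Fgf21, an ATF4 target, was at 1.89, 0 and 0 FPKM in the GcKO libraries and 0, 0 and 0 FPKM in the AmcKO libraries, in contrast to 73.6, 49.3 and 77.2 FPKM in MUT.

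**Figure D2:**
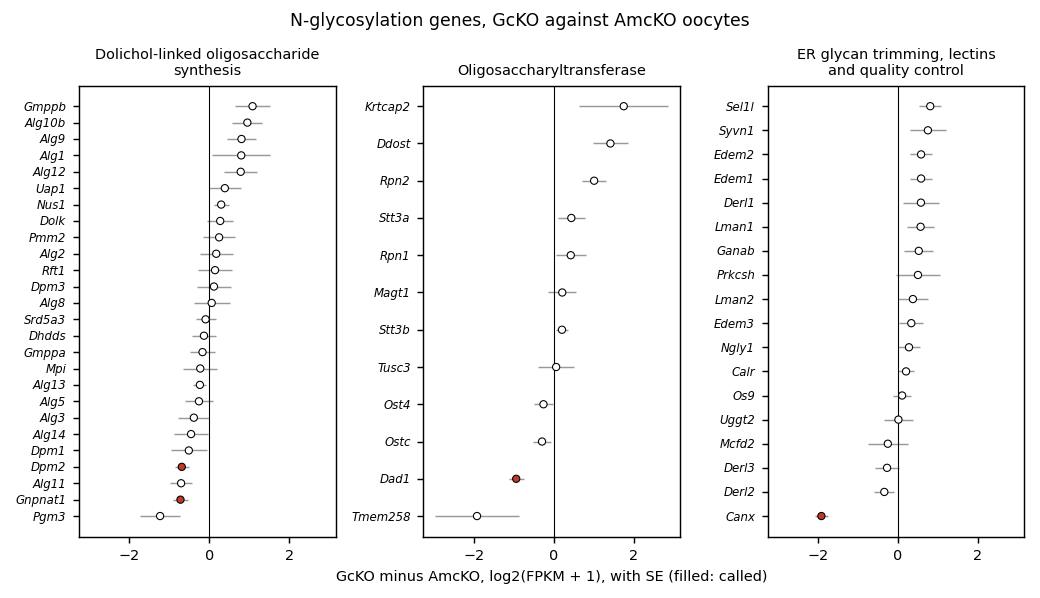
Log2 difference between GcKO and AmcKO oocytes, with its SE, for each tested gene of the 3 lists around N-glycan assembly, transfer and reading. Filled points passed the test, and Canx at the foot of the right panel lies at -1.92, away from the other members.

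Along the rest of the secretory route, single members were lower in GcKO while most of each list was not called. Tram1, a protein of the ER translocon that receives nascent chains, stood at 42.4, 41 and 42.9 FPKM in the GcKO libraries and 102, 113 and 97.9 FPKM in the AmcKO libraries (-1.28 ± 0.17 (SE), adjusted p = 0.00116). The signal peptidase subunits Sec11c (-1.11 ± 0.21 (SE), adjusted p = 0.00718) and Sec11a (-1.09 ± 0.20 (SE), adjusted p = 0.00582) were also called, which made 3 of 29 tested genes. The 3 made 10.3% of that list against 5.36% of all genes, and only Tram1 of the 3 was kept on all 3 scales. Bcap31, an ER cargo protein that sorts membrane proteins and was chosen after its values were seen, differed by -1.22 ± 0.20 (SE), adjusted p = 0.00304. Of 32 coat and cargo proteins, Kdelr2, the receptor that returns ER proteins from the Golgi, was called on the deposited scale only (-1.05 ± 0.23 (SE), adjusted p = 0.0147). In the Golgi list 3 of 27 were lower, or 11.1%. C1galt1c1 (Cosmc), the chaperone of the O-glycan core transferase, stood at 28, 31.7 and 48.7 FPKM in the GcKO libraries and 84.4, 151 and 90.2 FPKM in the AmcKO libraries (-1.55 ± 0.23 (SE), adjusted p = 0.00196). Chsy1, a chondroitin synthase, differed by -1.21 ± 0.16 (SE), adjusted p = 0.00129, and B4galt4, a galactosyltransferase, by -1.08 ± 0.21 (SE), adjusted p = 0.00763. C1galt1c1 and Chsy1 were called on all 3 scales and B4galt4 on the deposited scale only.

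Of 12 tested genes of the oocyte surface, 2 were lower in GcKO, or 16.7% against 5.36% of all genes, none was higher, and the median was -0.40. The median level of this list was 156 FPKM, and of all genes between 50 and 500 FPKM 25.4% were lower. Zp3, the zona protein that binds sperm together with ZP2, stood at 493, 596 and 507 FPKM in the GcKO libraries and 952, 639 and 952 FPKM in the AmcKO libraries, and the GcKO values lay just under the lowest AmcKO value (-0.65 ± 0.17 (SE), adjusted p = 0.0422). Zp2 (-0.41 ± 0.20 (SE), adjusted p = 0.282) and Zp1 (-0.57 ± 0.28 (SE), adjusted p = 0.27) did not pass. Cd9, needed for gamete fusion, was the other call (-0.58 ± 0.15 (SE), adjusted p = 0.0414). Neither call was kept on another scale. With equal sums both Zp3 and Cd9 came out above 0, but the all-gene median on that scale was 0.60. Relative to that median Zp3 was at -0.51 and Cd9 at -0.44. None of the 9 tested members of the list for oocyte signals and their processing enzymes was called, with a median of 0.21. Bmp15, the partner of GDF9, was at 1236, 1819 and 1637 FPKM in the GcKO libraries and 1410.3, 1138 and 1489 FPKM in the AmcKO libraries (0.21 ± 0.18 (SE), adjusted p = 0.548), and after quantile normalization it was called higher in GcKO, at 1.00. Fgf8 differed by -0.52 ± 0.23 (SE), adjusted p = 0.211. Spesp1, a sperm equatorial segment protein, was at 8.66, 10.1 and 5.83 FPKM in the GcKO libraries and 10.2, 8.59 and 15.9 FPKM in the AmcKO libraries (-0.44 ± 0.30 (SE), adjusted p = 0.447) and was listed at 0 in each of the 6 MUT and WT libraries.

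Maternal-effect transcripts gave a mixed picture. None of the 8 members of the subcortical maternal complex was called, with Nlrp5 at -0.13 ± 0.26 (SE), adjusted p = 0.812 and Khdc3 at -0.78 ± 0.27 (SE), adjusted p = 0.12. Of 28 maternal chromatin factors, 4 were lower (14.3% against 5.36% of all genes) and 1 was higher. Dppa3 (Stella), which protects the maternal genome from demethylation, was the most abundant of them, at 8055, 9600.0 and 11959.5 FPKM in the GcKO libraries and 21716, 29514 and 20022 FPKM in the AmcKO libraries (-1.26 ± 0.19 (SE), adjusted p = 0.00196). H3f3b, a histone H3.3 gene, differed by -1.01 ± 0.17 (SE), adjusted p = 0.00386, the oocyte linker histone H1foo by -0.92 ± 0.15 (SE), adjusted p = 0.00278 and the histone chaperone Npm2 by -0.72 ± 0.18 (SE), adjusted p = 0.0307. All 4 lost the call after quantile normalization. Trim28, the corepressor that silences imprinted regions and retroelements, went the other way, at 10.1, 11.9 and 7.36 FPKM in the GcKO libraries and 1.67, 0.946 and 3.24 FPKM in the AmcKO libraries (1.92 ± 0.32 (SE), adjusted p = 0.00368). The Trim28 groups did not overlap, the call was kept in all 15 alternative fits, and the MUT values of 6.27, 8.24 and 7.28 FPKM were nearer to GcKO than to WT, at 1.05, 1.78 and 1.02 FPKM.

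**Figure D3:**
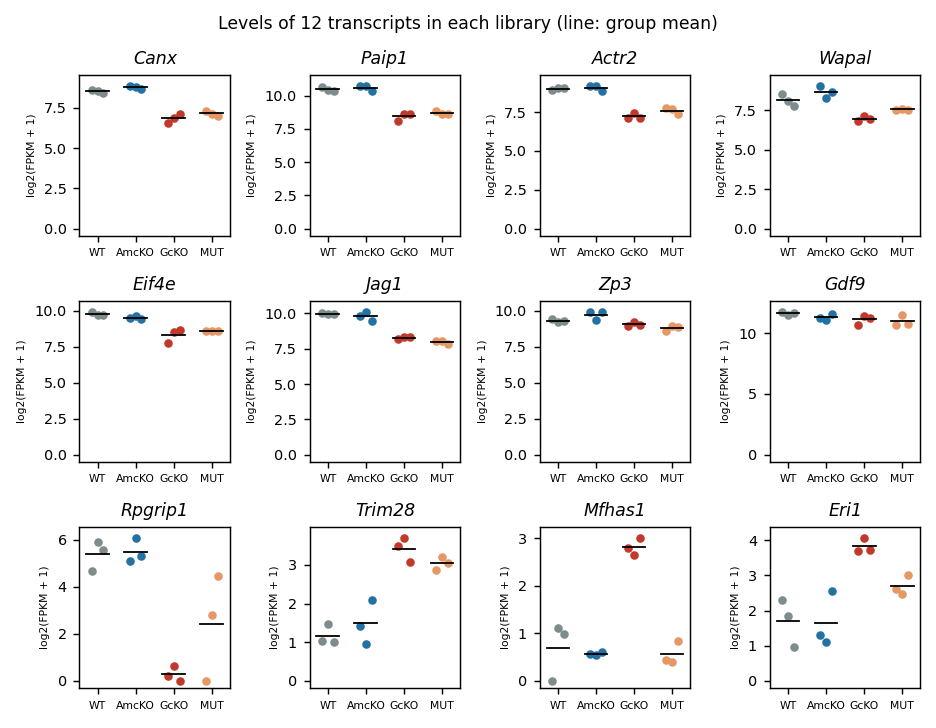
Levels of 12 transcripts in each of the 12 libraries on the log2(FPKM + 1) scale, with the group mean as a line. Canx, Paip1, Actr2, Wapal, Eif4e and Jag1 were lower in GcKO than in AmcKO, Gdf9 overlapped, and Mfhas1 was high in the 3 GcKO libraries alone.

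Among genes for the storage and translation of maternal mRNA, Paip1 and Eif4e were lower on all 3 scales. Paip1, which joins the poly(A)-binding protein to the cap complex, stood at 274, 389 and 387 FPKM in the GcKO libraries and 1686, 1655 and 1288 FPKM in the AmcKO libraries, and its difference of -2.15 ± 0.17 (SE), adjusted p = 4.82e-05 had, with Canx, the smallest adjusted p of the named genes. Eif4e, the cap-binding protein itself, stood at 215, 365 and 399 FPKM in the GcKO libraries and 727, 785 and 672 FPKM in the AmcKO libraries (-1.20 ± 0.19 (SE), adjusted p = 0.00316). Both were lower in every alternative fit. Of 32 genes for maternal mRNA storage and clearance, 5 were lower (15.6% against 5.36% of all genes), Eif4e among them, and 1 was higher. Btg4, the adaptor that brings the deadenylase to maternal transcripts, was at 2475, 3495 and 3518 FPKM in the GcKO libraries and 7154, 7545 and 6643 FPKM in the AmcKO libraries (-1.19 ± 0.16 (SE), adjusted p = 0.00129), and the deadenylase Cnot7 differed by -0.89 ± 0.17 (SE), adjusted p = 0.00661. Zar1l (-0.80 ± 0.18 (SE), adjusted p = 0.0176) and Dazl (-0.70 ± 0.17 (SE), adjusted p = 0.0275), RNA-binding proteins of the oocyte, completed the lower members, and Cpeb1, which holds maternal mRNA in a short-tailed, silent form, was the higher one, at 149, 135 and 138 FPKM in the GcKO libraries and 99.3, 82.4 and 97.4 FPKM in the AmcKO libraries (0.60 ± 0.13 (SE), adjusted p = 0.018), called on all 3 scales and named after its values were seen. Btg4 lost its call after quantile normalization, and Cnot7, Zar1l and Dazl lost theirs on both other scales. Among 51 initiation factors 3 were lower, or 5.88%, close to the share over all genes. Eif2b1 was at -1.14 ± 0.22 (SE), adjusted p = 0.00734, not kept after quantile normalization, and Eif2s1 at -0.90 ± 0.17 (SE), adjusted p = 0.00619, not kept with equal sums. Wtap, a subunit of the mRNA methylation complex chosen after its values were seen, stood at 348, 457 and 380.2 FPKM in the GcKO libraries and 1227, 1296 and 928 FPKM in the AmcKO libraries (-1.53 ± 0.15 (SE), adjusted p = 0.000203).

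Calls in the lists for chromosome segregation and the meiotic cell cycle were mostly lower, and the only higher ones were Cdc20 and Mcm6. Of 17 cohesin genes 3 were called lower, or 17.6% against 5.36% of all genes. Wapal, which releases cohesin from chromosomes, stood at 111, 142 and 121 FPKM in the GcKO libraries and 527, 313 and 408 FPKM in the AmcKO libraries (-1.71 ± 0.21 (SE), adjusted p = 0.000716) and was called on all 3 scales. The securin Pttg1 differed by -1.02 ± 0.18 (SE), adjusted p = 0.00442 and the cohesin acetyltransferase Esco2 by -0.79 ± 0.13 (SE), adjusted p = 0.00365, both on the deposited scale only. In the kinetochore and checkpoint list 7 of 39 were lower (17.9%) and none was higher. The kinetochore proteins Cenpq (-1.35 ± 0.23 (SE), adjusted p = 0.00417) and Spc25 (-1.05 ± 0.17 (SE), adjusted p = 0.00291) kept the call on all 3 scales, whereas Mad2l1, of the spindle checkpoint (-1.01 ± 0.20 (SE), adjusted p = 0.00926), and Birc5, of the chromosomal passenger complex (-1.001 ± 0.15 (SE), adjusted p = 0.00186), lost it after quantile normalization, Mad2l1 with equal sums as well. Of 33 genes of meiotic arrest and CDK1 control, Cks1b (-0.996 ± 0.20 (SE), adjusted p = 0.00926) and Arpp19 (-0.89 ± 0.21 (SE), adjusted p = 0.0208) were lower, or 6.06%. In the anaphase-promoting complex list Anapc16 was lower (-0.64 ± 0.16 (SE), adjusted p = 0.0323) and the activator Cdc20 higher (1.29 ± 0.36 (SE), adjusted p = 0.0493), out of 18, and 1 call each way compares with 5.36% lower and 0.889% higher over all genes. Among 25 licensing genes Orc6 (-0.97 ± 0.26 (SE), adjusted p = 0.045) and Orc5 (-0.94 ± 0.20 (SE), adjusted p = 0.0132) were lower, or 8.0%, and the helicase subunit Mcm6 higher (1.24 ± 0.34 (SE), adjusted p = 0.0433). The calls of Cks1b, Arpp19, Anapc16, Orc6 and Orc5 were made on the deposited scale only, and those of Cdc20 and Mcm6 were lost after quantile normalization.

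Actin and tubulin genes moved in both directions. Actr2 (Arp2), of the complex that nucleates branched actin, stood at 140.1, 173 and 139 FPKM in the GcKO libraries and 574, 584 and 461 FPKM in the AmcKO libraries, with no overlap and a difference of -1.83 ± 0.15 (SE), adjusted p = 5.1e-05 that was kept in all 15 alternative fits. Pfn1 (-0.99 ± 0.24 (SE), adjusted p = 0.0257) and Arpc5l (-0.58 ± 0.15 (SE), adjusted p = 0.0343) were also lower, both on the deposited scale only. Actg1, cytoplasmic gamma-actin, was higher at 26.8, 21.8 and 19.7 FPKM in the GcKO libraries and 14.1, 7.56 and 11 FPKM in the AmcKO libraries (1.03 ± 0.24 (SE), adjusted p = 0.023). Of 23 tested members of the actin list, 3 were thus lower and 1 higher, against 5.36% lower and 0.889% higher over all genes. Actb did not pass (-0.21 ± 0.13 (SE), adjusted p = 0.421). Rock1, a kinase of actomyosin contraction, differed by -1.54 ± 0.20 (SE), adjusted p = 0.00116, Sept2, a septin, by -1.66 ± 0.22 (SE), adjusted p = 0.00123, and Tubg2, a gamma-tubulin, by 1.39 ± 0.23 (SE), adjusted p = 0.00326, all chosen after their values were seen, as was the mitochondrial transport GTPase Rhot1, at 41.2, 28.6 and 23.1 FPKM in the GcKO libraries and 12.6, 9.2 and 16.6 FPKM in the AmcKO libraries (1.21 ± 0.26 (SE), adjusted p = 0.0147).

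Lists of abundant transcripts for energy supply, protein turnover and ribosomes had medians below 0 on the deposited scale. Oxidative phosphorylation had 12 of 79 members lower (15.2%, median -0.32), cytosolic ribosomal proteins 7 of 72 (9.72%, median -0.31), mitochondrial ribosomal proteins 8 of 77 (10.4%, median -0.26) and the proteasome 5 of 43 (11.6%, median -0.30). Of all genes 5.36% were lower, and none of these 4 lists had a member called higher. The median levels of the lists were 67.4, 37.1, 52.6 and 34.1 FPKM in the same order. Of all genes between 5 and 50 FPKM 3.18% were lower, and between 50 and 500 FPKM 25.4% were. After quantile normalization these medians were 0.028, -0.014, 0.033 and -0.065. With equal sums, less the median of all genes, they were -0.22, -0.20, -0.14 and -0.18 in the same order. Members called on all 3 scales were the complex I acyl carrier Ndufab1, at 12, 17.1 and 20.9 FPKM in the GcKO libraries and 61, 54.7 and 48.4 FPKM in the AmcKO libraries (-1.68 ± 0.31 (SE), adjusted p = 0.00635), the cytochrome oxidase subunit Cox7c (-1.58 ± 0.26 (SE), adjusted p = 0.00318), Mrpl42 (-1.43 ± 0.21 (SE), adjusted p = 0.00186), and the catalytic-core subunits Psmb7 (-1.26 ± 0.20 (SE), adjusted p = 0.00261) and Psmb1 (-1.08 ± 0.17 (SE), adjusted p = 0.00232). Rpl19 did not pass (-0.30 ± 0.23 (SE), adjusted p = 0.509). Of 84 cytosolic ribosomal protein genes, 10 were listed at 0 in all 6 libraries, although every cell uses them, so a value of 0 in this table can be a failed estimate.

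Smaller calls in other lists were the redox genes Glrx (-1.14 ± 0.18 (SE), adjusted p = 0.00306), Prdx1 (-0.83 ± 0.17 (SE), adjusted p = 0.0131) and Prdx2 (-0.62 ± 0.16 (SE), adjusted p = 0.0378), lower, and Txnip, the thioredoxin inhibitor, higher at 240.0, 252 and 226 FPKM in the GcKO libraries and 158, 140.0 and 171 FPKM in the AmcKO libraries (0.62 ± 0.16 (SE), adjusted p = 0.0421), of 29 tested. The 3 lower redox genes made 10.3% of their list against 5.36% of all genes. Txnip was called higher on all 3 scales, Glrx lost its call after quantile normalization, and both Prdx genes lost theirs on both other scales. In the list for glycolysis and the TCA cycle Sdhd (-1.06), Sdhc (-0.98) and Ldhb (-0.76) were lower and Dlst (1.29) higher on the log2 scale, of 34 (8.82% lower). The chaperones Dnajb4 (-1.14) and Hsp90aa1 (-0.73) were lower, of 29 heat shock genes (6.9%). The Mediator list had 4 of 26 lower (15.4%), led by Med10 (-1.11), and Med17 higher (0.69). Lsm and Sm proteins had 4 of 24 lower (16.7%), led by Lsm10 of the histone pre-mRNA particle (-1.14). Mitochondrial import had 3 of 21 lower (14.3%), led by Timm17a (-0.76). Zinc finger proteins had 9 of 211 lower and 2 higher (Zfp280b, 0.94, and Zfp750, 0.76), which is close to the share over all genes. The aminoacyl-tRNA synthetases had Lars2 as the single call of 24. Of 8 reference transcripts, Hprt (-0.79) and Ywhaz (-0.72) were lower. Of the granulosa markers that could be tested, 9 in number, Bmpr1b, a BMP receptor that oocytes also express, was higher (0.75 ± 0.21 (SE), adjusted p = 0.0475). The median of these 9 was 0.66, against 0.058 over all genes, at a median level of 1.29 FPKM. No olfactory receptor of 54 and no Bex or Tceal gene of 8 was called. Of the genes named from glycolysis on, Dnajb4, Med10, Lars2 and Zfp280b kept the call on all 3 scales. Dlst, Med17, Lsm10, Zfp750 and Bmpr1b lost it after quantile normalization alone, and Sdhd, Sdhc, Ldhb, Hsp90aa1, Timm17a, Hprt and Ywhaz lost it on both other scales.

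**Figure D4:**
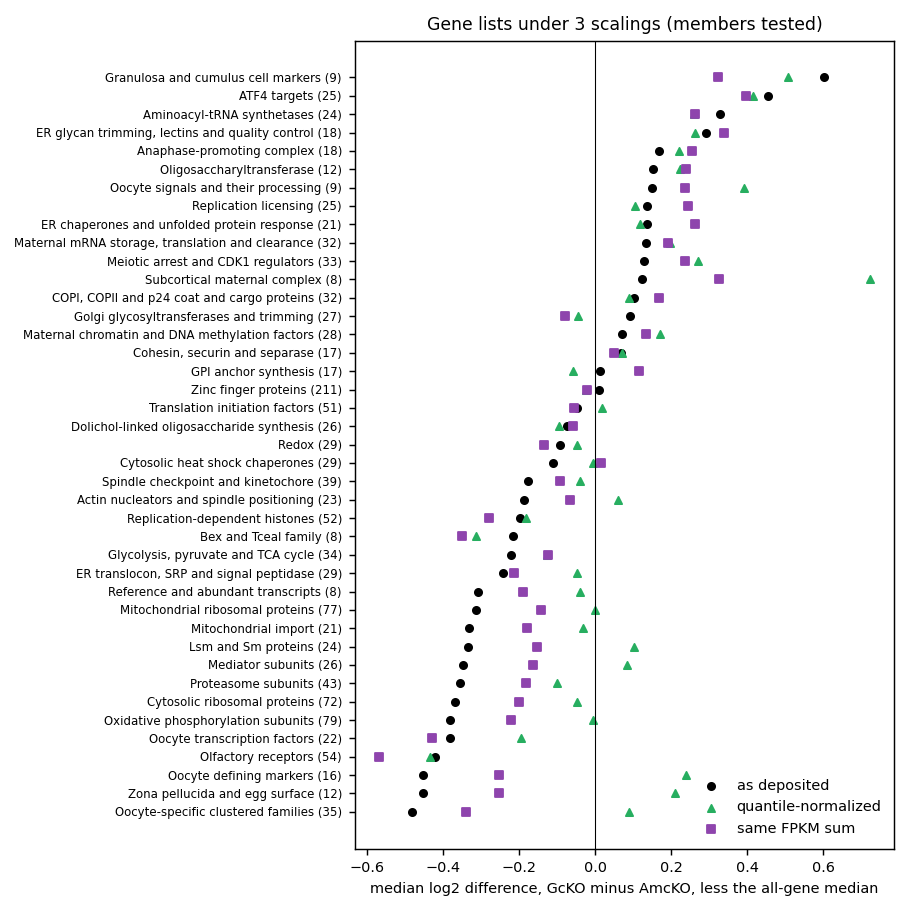
Median log2 difference between GcKO and AmcKO oocytes for each gene list with at least 8 tested members, less the median over all genes, as deposited (circles), after quantile normalization (triangles) and with equal FPKM sums (squares). Most lists of abundant transcripts lie left of 0 as deposited. They move toward 0 or past it after quantile normalization, which gives every library the same distribution of values. The subcortical maternal complex, with a median level of 298 FPKM, lies right of 0 as deposited and moves further right.

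Several oocyte-specific gene families sit in clusters. The share lower among listed members was 34.3% against 5.36% of all genes, at a median level of 262 FPKM. Of all genes between 50 and 500 FPKM 25.4% were lower. Of 35 tested members of the listed families 12 were lower and 1 was higher, among them the homeobox genes of the Obox family, Obox2, at 11305, 15732 and 16275 FPKM in the GcKO libraries and 38571, 46915 and 32146 FPKM in the AmcKO libraries (-1.44 ± 0.19 (SE), adjusted p = 0.00116), and Obox1 (-1.35 ± 0.20 (SE), adjusted p = 0.00186), both not kept after quantile normalization. Zscan4c, a gene of the early embryo that was scarce here, was at 0.32, 1.8 and 1.99 FPKM in the GcKO libraries and 8.46, 7.06 and 4.44 FPKM in the AmcKO libraries (-1.74 ± 0.36 (SE), adjusted p = 0.0114), with Zscan4f at -1.60 ± 0.35 (SE), adjusted p = 0.0163, and both were called on all 3 scales. These genes recur in the list of oocyte transcription factors, where 7 of 22 were lower (31.8%), all of them Obox, Oog or Zscan4 genes, and none was higher. The 3 clusters that follow were chosen after their values were seen, so their counts are a description. Their median levels were 2048, 1974 and 3282 FPKM, in the order given below. Of all genes at 500 FPKM or more, 61.1% were lower. All 13 Fbxw F-box genes between 109139447 and 109790670 on chromosome 9 were lower, by -1.12 to -1.34 on the log2 scale. In none did the groups overlap, against 25.1% of all genes tested without overlap. Summed over the 13 genes, the level was 13749.5, 18295 and 27107.5 FPKM in GcKO and 49120, 50652.8 and 37849.2 FPKM in AmcKO. Fbxw24, the most abundant, stood at 2457, 3608 and 5058 FPKM in the GcKO libraries and 8835, 9513 and 7271 FPKM in the AmcKO libraries. All 6 genes of the Tcl1 family on chromosome 12, cofactors of the AKT kinase, were lower, from Tcl1 at 5061, 8432 and 8276 FPKM in the GcKO libraries and 18033, 17239 and 16098 FPKM in the AmcKO libraries to Tcl1b3, the least changed at -0.83. On chromosome 4, Oog2, Oog3, Oog4 and 4 PRAME-like neighbours were lower, with Gm13103 at -1.48 ± 0.22 (SE), adjusted p = 0.00225, and Pramef12 was higher (0.71 ± 0.20 (SE), adjusted p = 0.0476). After quantile normalization the medians of the 3 clusters were -0.49, -0.19 and -0.19, and 2 Fbxw genes and 3 of the chromosome 4 genes were called on all 3 scales.

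Members of a family can be alike in sequence, so reads may have been shared among them and their values should not be taken as independent. Likeness was measured only for the promoters of the Fbxw genes, 4 of which are shown because the genes moved together. Each line gives the 150 bases before the RefSeq start (GRCm38.p6, minus strand), with the E-box CAGCTG in capitals, a motif chosen after the promoters were seen.

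Fbxw14, chr9:109287677-109287826: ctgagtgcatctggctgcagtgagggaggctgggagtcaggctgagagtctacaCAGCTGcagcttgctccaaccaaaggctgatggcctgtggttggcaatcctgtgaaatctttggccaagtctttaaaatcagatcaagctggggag
Fbxw15, chr9:109568263-109568412: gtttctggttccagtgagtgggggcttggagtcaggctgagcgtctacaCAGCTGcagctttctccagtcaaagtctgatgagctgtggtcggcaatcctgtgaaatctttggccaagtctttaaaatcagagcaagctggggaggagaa
Fbxw24, chr9:109626060-109626209: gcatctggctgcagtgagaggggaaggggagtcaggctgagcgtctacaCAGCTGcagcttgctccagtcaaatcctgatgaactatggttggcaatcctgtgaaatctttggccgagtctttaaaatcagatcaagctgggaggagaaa
Fbxw28, chr9:109339660-109339809: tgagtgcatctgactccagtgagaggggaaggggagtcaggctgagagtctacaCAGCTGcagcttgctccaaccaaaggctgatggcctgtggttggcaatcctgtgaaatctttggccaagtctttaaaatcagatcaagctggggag

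RefSeq promoters were found for 10 of the 13 genes, and over 250 bases the 45 pairs were between 84.7% and 97.3% identical when aligned. All 10 held CAGCTG, which reads the same on both strands, against 12.9% of 27025 promoters. Since the 10 promoters are copies, they do not count as 10 separate matches.

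**Figure D5:**
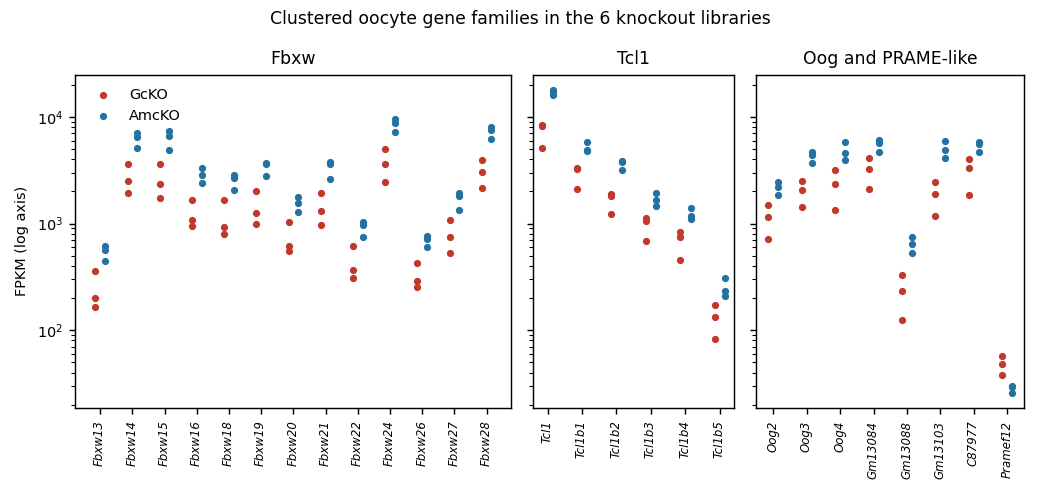
FPKM on a log axis of each gene of the Fbxw, Tcl1 and Oog and PRAME-like groups, with the 3 GcKO libraries in red and the 3 AmcKO libraries in blue. GcKO lies below AmcKO in every gene but Pramef12, where it lies above.

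The largest falls and rises included several genes whose values need care. Rpgrip1, a ciliary protein of photoreceptors, had the largest fall, at 0.14, 0.565 and 0.00338 FPKM in the GcKO libraries and 32.8, 65.3 and 38.8 FPKM in the AmcKO libraries (-5.20 ± 0.78 (SE), adjusted p = 0.00201). It overlaps Supt16 on the other strand of chromosome 14, shares a locus entry with it in the table, and Supt16, named after its values were seen, was at 35, 34 and 27 FPKM in the GcKO libraries and 51.4, 11 and 37.4 FPKM in the AmcKO libraries, with the lowest AmcKO value where Rpgrip1 was highest. Without stated strand use, reads of the pair cannot be told apart. Vmn1r139, Vmn1r157, Vmn1r112 and Vmn1r132, of the vomeronasal receptor family, and Gm6902 differed by -2.68, -2.41, -2.32, -2.15 and -2.76 on the log2 scale, in that order, and all 5 share a locus entry with 53 genes on chromosome 7. Their likeness in sequence was not measured, and with 53 genes under 1 locus entry the gene of origin is uncertain. Pcp4, a calmodulin regulator, was at 5.17, 6.58 and 8.25 FPKM in the GcKO libraries and 24.8, 37.1 and 34.1 FPKM in the AmcKO libraries (-2.11 ± 0.40 (SE), adjusted p = 0.00718). The histone genes Hist3h2ba (-2.51 ± 0.68 (SE), adjusted p = 0.0433) and Hist2h2bb were called in opposite directions, the second at 5.75, 5.56 and 9.32 FPKM in GcKO and listed at 0 in all AmcKO libraries, and both calls were lost after quantile normalization. Of 52 tested histone genes 4 were lower (7.69% against 5.36% of all genes), Hist1h2be (-1.31, not kept with equal sums) and Hist1h2bg (-1.07, not kept on either other scale) among them, and Hist2h2bb was the higher one. The remaining genes among the 12 largest falls were 2810001G20Rik (-2.25) and EU599041 (-1.99).

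Among the rises, Mfhas1 and Eri1 are neighbours on chromosome 8. Mfhas1, a leucine-rich repeat GTPase (35587798 to 35679449, plus strand), stood at 5.96, 5.27 and 6.99 FPKM in the GcKO libraries and 0.487, 0.459 and 0.524 FPKM in the AmcKO libraries (2.24 ± 0.33 (SE), adjusted p = 0.00189), and at 0.352, 0.324 and 0.785 FPKM in MUT and 0, 1.15 and 0.992 FPKM in WT. Its GcKO values thus lay above those of all 9 other libraries. Eri1, an exonuclease of histone mRNA and small RNAs (35465253 to 35496196, minus strand), stood at 11.9, 15.6 and 12.3 FPKM in the GcKO libraries and 1.45, 1.17 and 4.86 FPKM in the AmcKO libraries (2.17 ± 0.41 (SE), adjusted p = 0.00696). The other 2 tested genes within 1 Mb, named after their values were seen, did not pass, Tnks at 0.85 ± 0.34 (SE), adjusted p = 0.175 and Lonrf1 at 0.12 ± 0.40 (SE), adjusted p = 0.891. Sap30, of the SIN3 corepressor complex, was at 129.8, 183 and 103 FPKM in the GcKO libraries and 33, 48.1 and 73.4 FPKM in the AmcKO libraries (1.45 ± 0.35 (SE), adjusted p = 0.0275). Ccdc91, a Golgi trafficking protein (1.63 ± 0.31 (SE), adjusted p = 0.00731), Usp27x, a deubiquitinase (1.55), Lars2, the mitochondrial leucyl-tRNA synthetase (1.47), Aste1 (1.499), the peroxisomal Pex26 (1.43) and Gm13031 (1.81), the last 2 not kept after quantile normalization, completed the list with Asb17os, which was listed at 0 in all AmcKO libraries and at 2.84, 5.49 and 4.6 FPKM in GcKO and whose name marks it as antisense to Asb17.

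Further genes were called on all 3 scales and named after their values were seen. Jag1, the Notch ligand by which oocytes signal to granulosa cells, stood at 289, 321 and 325 FPKM in the GcKO libraries and 916, 1093 and 713 FPKM in the AmcKO libraries (-1.52 ± 0.15 (SE), adjusted p = 0.000203). The nucleoporin Nup98 (-1.55 ± 0.17 (SE), adjusted p = 0.000292), the lamin B receptor Lbr (-1.51 ± 0.16 (SE), adjusted p = 0.000277) and the histone demethylase Kdm6b (-1.48 ± 0.18 (SE), adjusted p = 0.000829) were lower. Bhlhe41, a circadian repressor, was at 15.6, 14.9 and 18.5 FPKM in the GcKO libraries and 55.3, 48.3 and 52 FPKM in the AmcKO libraries (-1.62 ± 0.19 (SE), adjusted p = 0.000452), and Crabp2, a retinoic acid carrier, at -1.60 ± 0.22 (SE), adjusted p = 0.00157. The lysosomal membrane protein Lamp1 was higher (0.73 ± 0.18 (SE), adjusted p = 0.0264).

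Calls near the engineered genes were no more frequent than elsewhere. Within 20 Mb of Dpagt1 on chromosome 9, 8 of 179 tested genes were called (4.47%), and within 20 Mb of Amhr2 on chromosome 15, 3 of 158 were (1.9%), against 6.25% of all genes. BC048502, at 4.45, 2.13 and 1.83 FPKM in AmcKO and listed at 0 in the 9 other libraries, and Prr13 (-0.58 ± 0.15 (SE), adjusted p = 0.0343), called on the deposited scale only, lay within 1 Mb of Amhr2, where the AmcKO oocytes carry the knock-in.

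The contrast of MUT with WT oocytes shares no library with that of GcKO with AmcKO and was read from the same fit. It called 1281 of the 10343 genes lower in MUT (12.4%) and 1069 higher (10.3%). Of the 554 genes lower in GcKO, 473 were also lower in MUT, which is 85.4% of the first list and 36.9% of the second. Of the 92 higher genes 47 were shared, 51.1% and 4.4% of the lists. Opposite calls numbered 2 and 0. The FPKM sum differed in the same direction in both contrasts, at 589617 to 611597 in MUT and 1167360 to 1226000 in WT, and its part in the overlap was not tested. MUT libraries are numbered 1 to 3 like GcKO and WT libraries 4 to 6 like AmcKO, so any batch tied to these numbers and the overlap cannot be told apart. After quantile normalization the shared calls were 109 of 172 lower and 59 of 108 higher genes. The median level of the 554 lower genes was 142 FPKM in GcKO, 147 in MUT, 273 in AmcKO and 324 in WT, and that of the 92 higher genes was 13.2, 12.1, 6 and 6.59 FPKM in the same order. All 3 GcKO values lay below those of the 9 other libraries in 89 of the lower genes and above them in 18 of the higher genes, against 161 and 152 of all genes tested.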

How the data were processed

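RNA was measured by RNA-seq in 12 libraries of 20 oocytes each, in 4 groups of 3. RNA was amplified by Smart-seq2, per the labels, and the submitters' processing notes name mm10, TopHat2 2.0.13 and Cufflinks 2.2.1. The deposited table holds 1 FPKM value for each gene and library. Counts and read depth are not given in the sources used here, so no depth interval could be set. Strand use in counting is not given in the sources used here. The table's columns of fold changes and p-values from the authors' 6 pairwise comparisons were not used.

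FPKM values were analysed as log2(FPKM + 1) with limma 3.58.1 (R 4.3.3), with a variance trend, 1 mean for each of the 4 groups and 8 residual degrees of freedom, over genes that reached 1 FPKM in at least 1 of the 6 knockout libraries. P-values were adjusted by Benjamini-Hochberg over all 10343 genes, and genes under 0.05 were called. All log2 differences are GcKO minus AmcKO on this scale, which understates the change of low genes. Library properties were compared with exact permutation tests (scipy 1.17.1). The fit was tested on simulated data. The members and the 43 gene lists were chosen with earlier results of these data known, and 4 further lists after the values were seen. Genes named were Dpagt1, Gdf9 and Amhr2, the 12 largest rises and 12 largest falls among called genes without overlap, up to 4 called members of each list with the largest difference, and a set of 28 genes given in any case, and others are marked where they appear. Positions of genes are from GENCODE M21 (GRCm38), those within 20 Mb of the engineered genes from the deposited table, and promoters from RefSeq (GRCm38.p6). No library pair held identical values. Alternatives were other pseudocounts, filters, scalings, variance models and thresholds, and leaving out each of the 6 libraries.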

Additional observations from a re-analysis of the deposited data

How the results depend on the processing

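No paired analysis was possible because the compared groups share no replicate number (GcKO 1 to 3, AmcKO 4 to 6), so a batch tied to the numbers and the genotype cannot be told apart. The scaling changed most. The 646 calls (554 lower, 92 higher in GcKO, 135 among listed genes) became 280 after quantile normalization (172 lower, 60 listed), 2734 with equal FPKM sums (132 lower, 2602 higher, 423 listed) and 243 after a loess correction for abundance (157 lower, 53 listed). Calls made on the deposited, quantile and equal-sum scales alike, a count added after seeing the data, were 88 lower and 47 higher. Without the variance trend there were 262 calls (217 lower, 45 higher, 50 listed), with only the 6 libraries 115 (103, 12 and 25), over 2-fold 271 (224, 47 and 62) and at an adjusted p under 0.01 219 (210, 9 and 51). A mean of at least 5 FPKM gave 147 higher calls. Leaving out 1 library gave 275 to 789 calls, 249 to 680 lower, 26 to 109 higher and 59 to 163 among listed genes. Genes called in GcKO against AmcKO and in MUT against WT were 473 lower and 47 higher as deposited, 109 lower after quantile normalization, 79 lower and 2088 higher with equal sums, and 165 lower and 17 higher over 2-fold.

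Of 140 named genes that were called, 67 kept the call whichever library was left out. The numbers lost were 53, 45 and 18 without GcKO replicate 1, 2 or 3 and 59, 62 and 26 without AmcKO replicate 4, 5 or 6. Called in every one of the 15 alternative fits that tested them were 35, of which 31 were lower. The cause of the other losses was not tested. The all-gene median with equal FPKM sums was 0.60, and of the genes given below for that scale only Nlrp5 lay above it. Signs turned for these log2 differences. After the loess correction they were Gdf9 0.69, H1foo 0.084, Arpc5l 0.028, Prdx2 0.12, Ldhb 0.15, Lsm3 0.11, Timm17a 0.063, Timm9 0.14, Nlrp5 0.30, Alg13 0.14, Ost4 0.25, Ostc 0.023, Rpl19 0.12 and Actb 0.24. After quantile normalization they were Gdf9 0.71, H1foo 0.032, Arpc5l 0.095, Prdx2 0.071, Ldhb 0.13, Lsm3 0.091, Timm17a 0.0013, Timm9 0.15, Nlrp5 0.26, Alg13 0.12, Ost4 0.25, Ostc 0.00015, Rpl19 0.095, Actb 0.20 and Tcl1 0.024. With equal FPKM sums they were Gdf9 0.57, Gnpnat1 0.0052, Dpm2 0.047, Pigyl 0.023, Selk 0.046, Manf 0.11, Zp3 0.089, Cd9 0.16, Anapc16 0.10, Arpc5l 0.16, Prdx2 0.13, Hsp90aa1 0.015, Dazl 0.045, Ywhaz 0.0196, Lsm3 0.012, Snrpb2 0.048, Timm9 0.036, Tomm34 0.11, Zp1 0.15, Zp2 0.33, Fgf8 0.21, Npm2 0.017, Nlrp5 0.61, Alg13 0.50, Ost4 0.48, Ostc 0.44, Spesp1 0.23, Rpl19 0.44 and Actb 0.53. With 1 library left out the sign depended on the library for Gdf9 from -0.32 to 0.057, Nlrp5 from -0.39 to 0.19, Ost4 from -0.50 to 0.0083, Hspa5 from -0.0049 to 0.089 and Supt16 from -0.45 to 0.61, none of them called. The depth of the libraries is unknown, and values near 0 can be failed estimates.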

Other observations

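Among genes called in either direction, AmcKO stood apart from the other 3 groups in some. All 3 AmcKO values lay above those of the 9 other libraries in 26 of the 554 genes lower in GcKO, and below them in 11 of the 92 higher genes. Bhlhe41 was at 55.3, 48.3 and 52.0 FPKM in AmcKO against a mean of 26.3 FPKM in WT, and Sept2 was at 94.0, 63.9 and 95.6 FPKM against 45.5 FPKM. Over all 10343 genes the corresponding counts were 81 and 58.

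Pearson correlations of log2(FPKM + 1) over all listed genes, which are not independent, were 0.957 to 0.975 between GcKO and AmcKO libraries, 0.97 to 0.978 within GcKO and 0.972 to 0.975 within AmcKO. GcKO with MUT gave 0.968 to 0.978, AmcKO with MUT 0.96 to 0.972, AmcKO with WT 0.963 to 0.967, and GcKO with WT 0.944 to 0.958.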
